A study of Homo sapiens with 6 samples.

Results

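The kallikrein-related peptidases described here are 9 genes, KLK5, KLK6, KLK7, KLK8, KLK10, KLK11, KLK12, KLK13 and KLK14, found by symbol among the 23340 gene names kept from the deposited tables. They were followed across 3 human cell lines with 2 RNA sequencing libraries each. MCF10A is a non-tumorigenic mammary epithelial line, grown with 5% horse serum, EGF, hydrocortisone at 500 ng/ml, cholera toxin and insulin. HT-29 is a colon adenocarcinoma line, grown with 10% FBS and given 200 U/ml interferon-γ over 24 h. MDA-MB-436 is a breast adenocarcinoma line, grown in L-15 medium with 10% FBS and no added cytokine. HT-29 without interferon-γ was not analysed here, so cell line, medium and cytokine cannot be told apart.

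Kallikreins are secreted serine proteases that are made as inactive precursors and switched on by removal of a short propeptide, either by another kallikrein or by a different trypsin-like protease. Their genes lie side by side on chromosome 19. In skin, KLK5, KLK7 and KLK14 shed the outermost cells by cutting the proteins of corneodesmosomes, and inhibitors such as LEKTI, the product of SPINK5, hold them in check. In carcinomas, several members have been studied as secreted markers, and some cut protease-activated receptors on the cell surface.

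Each line had 1 library labelled with 25M reads and 1 deeper library. Recovered totals ran from 16.7 to 18.4M reads in the 25M libraries and from 50.2 to 69.5M in the deeper ones. Values are the deposited normalised counts, given for the 25M library first and the deeper library second. The check of the labels went against 2 of the 3 lines. KRT20, an intestinal keratin, had 29900 and 30880 normalised counts in the MDA-MB-436-labelled libraries and 0 and 0.547 in the HT-29-labelled ones. VIL1, which encodes the brush border protein villin, had 2055 and 2198 against 0 in both. VIM, the mesenchymal filament vimentin, had 36599 and 35267 in the HT-29-labelled libraries and 16.5 and 7.39 in the MDA-MB-436-labelled ones. All 6 intestinal markers were higher in the MDA-MB-436-labelled libraries than in MCF10A (summed 64022 and 67414 against 1.87 and 4.42), as were all 4 interferon-γ response markers (summed 81283 and 80662 against 91.8 and 94.3). In the HT-29-labelled libraries the intestinal markers summed to 4.5 and 6.57 and the interferon-γ markers to 1988 and 2002. Libraries were kept in their labelled groups. If the labels of these 2 lines were exchanged, each value below would belong to the other line, while MCF10A, with summed basal markers of 888478 and 869374, would be untouched.

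Summed over the 9 members, normalised counts were 6086 and 5783 in MCF10A, 13.5 and 18.6 in the HT-29-labelled libraries, and 31775 and 32185 in the MDA-MB-436-labelled ones. The 3 lines did not overlap. At 100 normalised counts or more, 6 members were present in MCF10A, 3 in the MDA-MB-436-labelled libraries and 0 in the HT-29-labelled ones. In these bulk libraries, fewer expressing cells and less RNA per cell cannot be told apart.

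**Figure D1:**
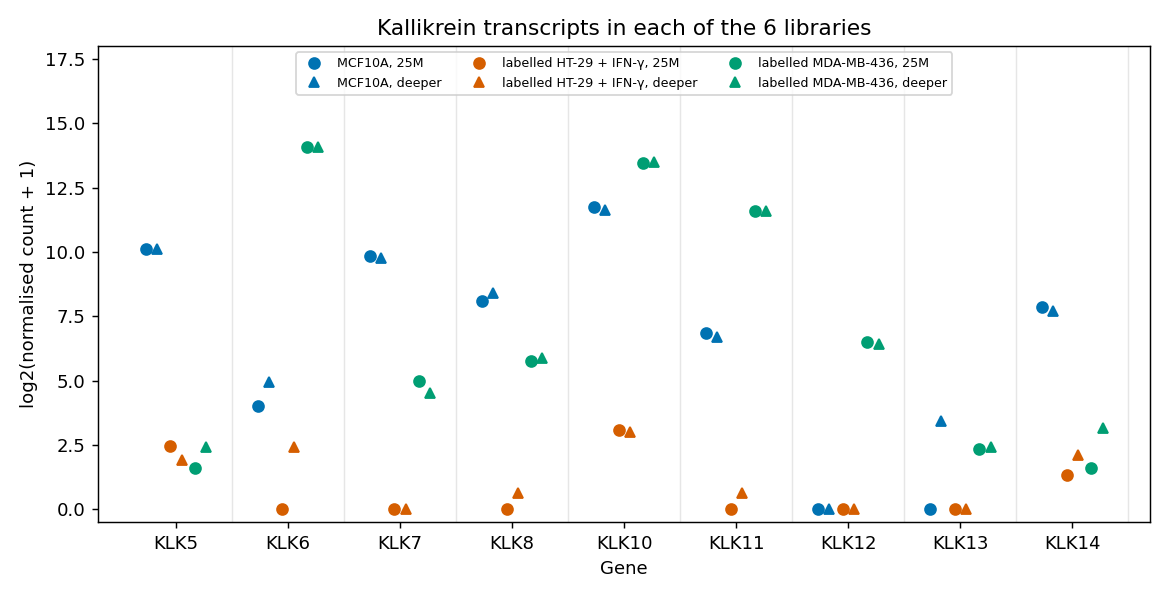
Expression of the 9 kallikreins in each library, as log2(normalised count + 1) on the vertical axis. Circles are the 25M libraries and triangles the deeper ones, coloured by line. KLK5, KLK7, KLK8 and KLK14 are highest in MCF10A, KLK6, KLK10, KLK11 and KLK12 are highest in the MDA-MB-436-labelled libraries, and the HT-29-labelled libraries stay at or below 7.5 normalised counts.

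The kallikreins of skin shedding were highest in MCF10A. KLK5, a trypsin-like protease that activates other kallikreins, had 1112 and 1099 normalised counts there, 4.5 and 2.74 in the HT-29-labelled libraries and 2.06 and 4.31 in the MDA-MB-436-labelled ones. MCF10A stood apart, and the other two lines overlapped. KLK7, the chymotrypsin-like partner of KLK5 in skin, had 925 and 869 in MCF10A, 30.9 and 22.2 in the MDA-MB-436-labelled libraries and 0 in both HT-29-labelled ones. The 3 lines fell in separate ranges. KLK14, a further activating protease of the epidermis, had 232 and 208 in MCF10A, 1.5 and 3.28 in the HT-29-labelled libraries and 2.06 and 8.01 in the MDA-MB-436-labelled ones. As for KLK5, MCF10A alone was high. KLK8, also called neuropsin and made in skin and brain, had 272 and 338 in MCF10A, 53.5 and 57.9 in the MDA-MB-436-labelled libraries and 0 and 0.547 in the HT-29-labelled ones, without overlap.

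The other members were led by the MDA-MB-436-labelled libraries. KLK6, a trypsin-like protease also called neurosin, had 17342 and 17380 normalised counts in these libraries, 15.0 and 29.5 in MCF10A and 0 and 4.38 in the HT-29-labelled ones. The leading line stood far above the other two, which were also apart. The MCF10A values for KLK6 rest on 8 and 60 reads, with exact Poisson 95% intervals of 6.47 to 29.5 and 22.5 to 37.9, which overlap. KLK10, first described as a gene of normal mammary epithelium, had 11197 and 11528 in the MDA-MB-436-labelled libraries, 3416 and 3127 in MCF10A and 7.5 and 7.11 in the HT-29-labelled ones. It was abundant in MCF10A as well as in the leading line, and the 3 ranges did not overlap. KLK11, a trypsin-like protease of many epithelia, had 3053 and 3097 in the MDA-MB-436-labelled libraries, 114 and 103 in MCF10A and 0 and 0.547 in the HT-29-labelled ones. KLK12 had 90.6 and 83.8 in the MDA-MB-436-labelled libraries and no read in the other 4 libraries. KLK11 and KLK12 ranges did not overlap between the leading line and the rest.

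KLK13, a trypsin-like protease of keratinised epithelia, was near the limit of detection. It had 0 and 9.82 normalised counts in MCF10A, 4.12 and 4.31 in the MDA-MB-436-labelled libraries and 0 in both HT-29-labelled ones. The MCF10A values correspond to 0 and 20 reads, whose exact Poisson 95% intervals, 0 to 6.91 and 6 to 15.2 normalised counts, overlap. KLK13 did not pass the filter on low values, so the tests below cover 8 of the 9 members. The intervals cover counting error only.

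Compared per length, the make-up of the family differed between the 2 lines that expressed it. The deposited RPKM, a read density per kilobase of gene scaled to library depth, allows members to be set against each other. In MCF10A, KLK10 had 31.9 ± 1.91 RPKM (SD, n = 2), KLK5 22.8 ± 0.138, KLK7 13.5 ± 0.57 and KLK8 11.2 ± 1.76. KLK14 followed at 5.71 ± 0.437 RPKM and KLK11 at 2.59 ± 0.19, while KLK6 had 0.432 ± 0.2 and KLK13 0.115 ± 0.162. Neighbours in this order were farther apart than their spread except KLK7 and KLK8, and KLK6 and KLK13, whose ranges of mean ± SD met. In the MDA-MB-436-labelled libraries, KLK6 had 334 ± 1.66 RPKM, KLK10 109 ± 1.54 and KLK11 72.6 ± 0.27, followed by KLK12 at 2.69 ± 0.166 and KLK8 at 2.02 ± 0.0991. The 3 leaders were well separated from one another and from the rest. KLK7 had 0.394 ± 0.094 RPKM and KLK14 0.129 ± 0.107, and KLK13 and KLK5 were within the spread of KLK14. In the HT-29-labelled libraries no member averaged above 0.0923 RPKM.

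**Figure D2:**
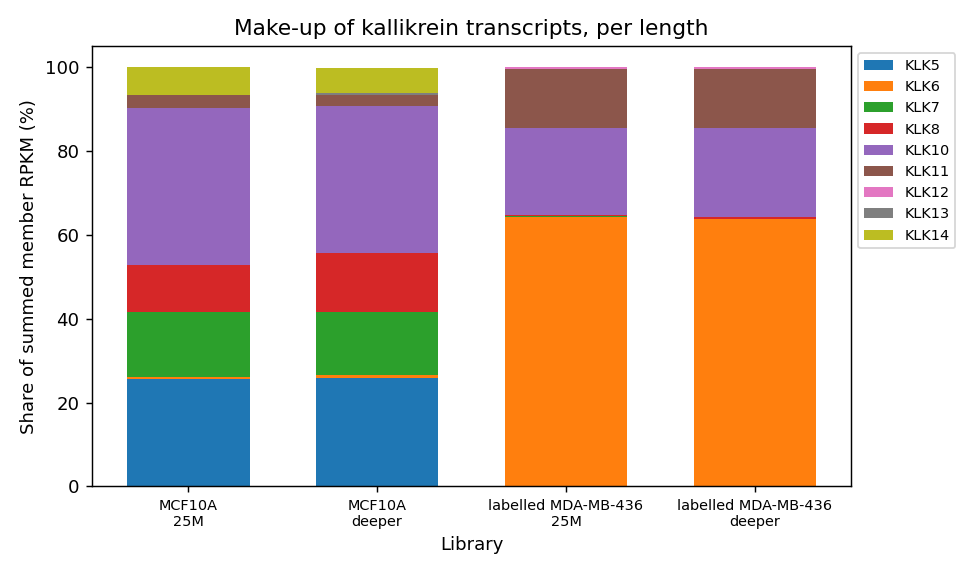
Share of each member in the summed RPKM of the 9 kallikreins, in percent, for the 2 MCF10A libraries and the 2 labelled MDA-MB-436; the HT-29-labelled libraries are left out because they sum to 0.253 and 0.41 RPKM. KLK10 holds 37.4% and 34.9% and KLK5 25.7% and 25.9% in MCF10A, whereas KLK6 holds 64.3% and 63.8% in the MDA-MB-436-labelled libraries.

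Upstream sequences are shown for 2 members that led in MCF10A (KLK5 and KLK7) and 2 that led in the MDA-MB-436-labelled libraries (KLK6 and KLK10), since these pairs took opposite sides. Each is the 250 bases before a RefSeq transcript start in GRCh38.p14, on the minus strand of chromosome 19, written 5′ to 3′, at chr19:50953039-50953288 for KLK5, chr19:50983918-50984167 for KLK7, chr19:50969592-50969841 for KLK6 and chr19:51019710-51019959 for KLK10. Capitals mark matches to the motifs searched.
KLK5: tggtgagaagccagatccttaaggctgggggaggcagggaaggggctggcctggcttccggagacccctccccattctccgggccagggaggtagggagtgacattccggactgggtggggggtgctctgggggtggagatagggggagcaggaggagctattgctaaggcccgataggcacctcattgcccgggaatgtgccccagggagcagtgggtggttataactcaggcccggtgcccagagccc
KLK7: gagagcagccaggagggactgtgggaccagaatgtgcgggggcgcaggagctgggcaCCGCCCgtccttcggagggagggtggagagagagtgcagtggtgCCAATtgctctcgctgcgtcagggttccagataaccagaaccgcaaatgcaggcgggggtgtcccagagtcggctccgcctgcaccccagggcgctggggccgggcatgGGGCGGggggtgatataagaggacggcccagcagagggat
KLK6: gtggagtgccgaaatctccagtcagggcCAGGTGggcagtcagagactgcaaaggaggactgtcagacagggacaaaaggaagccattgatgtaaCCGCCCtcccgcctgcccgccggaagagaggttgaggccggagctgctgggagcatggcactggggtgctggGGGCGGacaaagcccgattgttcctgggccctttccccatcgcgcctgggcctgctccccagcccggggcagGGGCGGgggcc
KLK10: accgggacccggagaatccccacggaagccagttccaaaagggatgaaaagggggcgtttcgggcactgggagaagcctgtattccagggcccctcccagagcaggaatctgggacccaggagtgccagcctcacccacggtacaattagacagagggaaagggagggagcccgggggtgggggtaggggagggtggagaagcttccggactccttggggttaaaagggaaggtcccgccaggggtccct

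The motif search covered both strands of 15 such windows of 8 members; KLK8 had no entry. KLK6 held GC boxes (GGGCGG) starting at -155, -83 and -11 and the E-box CACCTG, read here as CAGGTG, at -222. KLK7 held GC boxes at -193 and -40 and a CCAAT box (CCAAT) at -149. In KLK5 and KLK10 none of the 8 motifs was found in the windows printed. Over all members, GGGCGG was in 9 of the 15 windows, from 5 members (KLK6, KLK7, KLK11, KLK13 and KLK14), and in 42.6% of all 35116 windows. Some windows of KLK7, KLK10, KLK13 and KLK14 overlap, so the same site can be counted in more than 1 window. CACCTG was in 3 of the 15 windows (KLK6, KLK7 and KLK11) and in 17.5% of all windows. CCAAT was in 2 of the 15 (KLK7 and KLK13) and in 32% of all windows. TATAAA (10.7% of all windows), the AP-1 site TGANTCA (6.57%), the grainyhead site AACCNGTT (1.49%), the interferon-γ-activated site TTCNNNGAA (6.57%) and the interferon-stimulated core, GAAA followed after any 2 bases by GAAA (3.02%), were in no member window. The median GC content was 62.8% in member windows and 58.0% in all windows. Members with GC boxes included genes highest in MCF10A and genes highest in the MDA-MB-436-labelled libraries.

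Between MCF10A and the MDA-MB-436-labelled libraries the family divided: KLK6, KLK10, KLK11 and KLK12 were higher and KLK5, KLK7, KLK8 and KLK14 were lower, 4 of 8 tested members in each direction. Over all 15638 genes tested, 25.6% were called higher and 23.7% lower. Calls required a limma adjusted p under 0.05 together with a log2 fold change of 1 or more in size. The members' median log2 fold change was -0.314 and that of all genes tested was 0. KLK5 and KLK14 passed the filter only through MCF10A and KLK12 only through the MDA-MB-436-labelled libraries, so these had to differ: their p-values are not given, and the counts are a description.

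By fitted log2 fold change, the largest rise was that of KLK6, 657-fold in pooled reads (95% counting interval 518 to 846), or 9.62 on the log2 scale (SE 0.817, adjusted p = 0.000106). KLK12 was at least 73.13-fold higher, against a floor of 3 reads over both MCF10A libraries (log2 fold change 6.46, SE 0.357). KLK11 was 29.4-fold higher (26 to 33.3; log2 fold change 4.82, SE 0.224, adjusted p = 2.52e-07). KLK10, already abundant in MCF10A, was 3.59-fold higher (3.5 to 3.68; log2 fold change 1.80, SE 0.062, adjusted p = 4.39e-08). The 4 genes that were higher thus spanned a wide range of sizes, with KLK10 the smallest.

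Among the members that were lower, KLK5 fell furthest, 291-fold in pooled reads (147 to 674), or -8.10 on the log2 scale (SE 0.338). KLK7 was 36.4-fold lower (27.6 to 49; log2 fold change -5.05, SE 0.250, adjusted p = 3.62e-07) and KLK14 was 32.1-fold lower (18.9 to 59; log2 fold change -5.39, SE 0.527). KLK8 showed the smallest drop, 5.7-fold (4.7 to 6.96; log2 fold change -2.42, SE 0.289, adjusted p = 8.77e-05). For the untested KLK13, the ratio was 1.82-fold lower with an interval of 0.794 to 4.55, so that no difference was detectable at this depth.

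**Figure D3:**
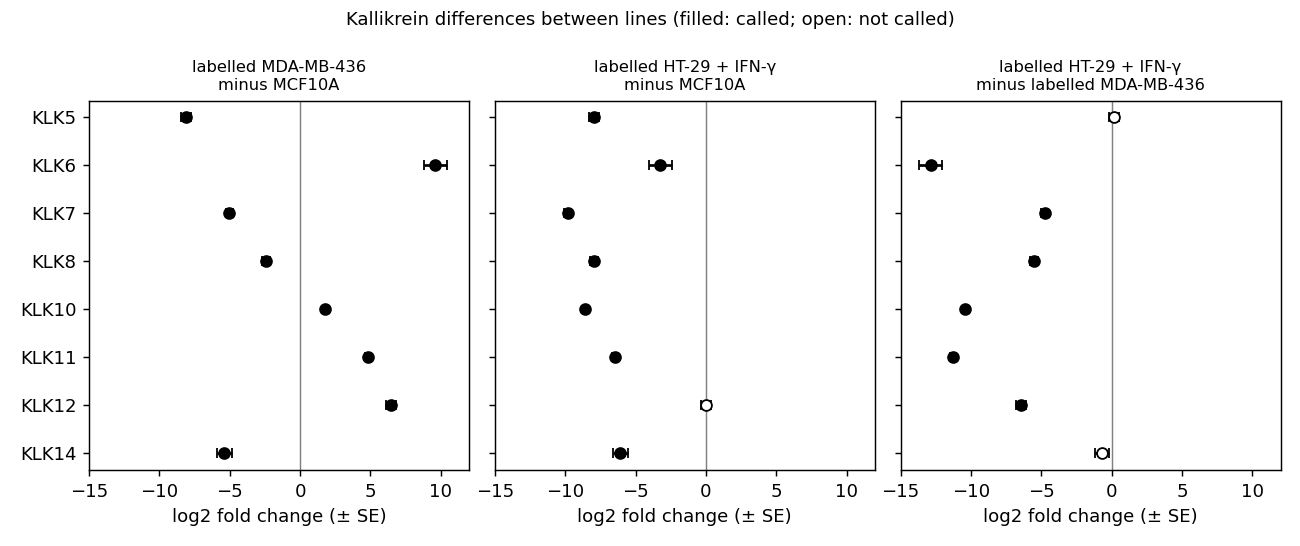
Differences of the 8 tested members in the 3 comparisons, as limma log2 fold changes on the log2(normalised count + 1) scale with bars of 1 SE; filled points passed the call rule and open points did not. The first panel splits 4 against 4, the second has 7 filled points below 0 and KLK12 open at 0, and the third has 6 filled points below 0 with KLK5 and KLK14 open.

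In the comparison of the HT-29-labelled libraries with MCF10A, 7 of the 8 tested members were called lower, where 18.1% of all genes tested were. Called higher were 0 members by limma, 0 at an unadjusted p under 0.05 and 0 by edgeR or DESeq2, where 28.4% of all genes tested were called higher. The exception, KLK12, had no reads in either line. KLK5 and KLK14 passed the filter through MCF10A alone, so their calls here were fixed by it. The members' median log2 fold change was -7.19, against 0.131 for all genes. KLK10 fell 442-fold in pooled reads (279 to 746; log2 fold change -8.62, SE 0.062, adjusted p = 5.26e-11) and KLK5 344-fold (174 to 797; log2 fold change -7.93). KLK7 was at least 731.8-fold lower (log2 fold change -9.81, adjusted p = 1.24e-08). These 3 had been among the most abundant members in MCF10A.

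With 1 read each in the HT-29-labelled libraries, the fold was uncertain for 2 members, which made KLK8 809-fold lower than MCF10A with a wide interval of 145 to 31997 (adjusted p = 7.85e-08) and KLK11 262-fold lower (46.6 to 10384, adjusted p = 6.02e-08). KLK14 was 75.8-fold lower (36.5 to 189). KLK6, low in both lines, had the smallest change, 8.25-fold lower (3.96 to 19.9), or -3.25 on the log2 scale (SE 0.817, adjusted p = 0.0124). Against a null fold of 2 KLK6 did not pass (adjusted p = 0.0561), and its log2 fold change ranged from -4.46 to -1.94 over the alternatives.

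The last comparison was of the HT-29-labelled libraries against the MDA-MB-436-labelled ones. It shares libraries with both comparisons above, so its values are not independent of them. Of the 8 tested members 6 were called lower, where 23.5% of all genes tested were. Again 0 were called higher by limma, at an unadjusted p under 0.05, or by edgeR or DESeq2, where 29.9% of all genes tested were. The members' median log2 fold change was -5.99, or -5.83 with members at 0 reads set to their bound, against 0.093 for all genes. KLK11 was 7700-fold lower (1382 to 304183; log2 fold change -11.27, adjusted p = 2.31e-09) and KLK6 5416-fold lower (2748 to 12546; log2 fold change -12.87, adjusted p = 2.59e-05). KLK10 was 1587-fold lower (1004 to 2678; log2 fold change -10.42, adjusted p = 1.84e-11). The 3 members that dominate the MDA-MB-436-labelled libraries had the largest fitted gaps. With no member above 7.5 normalised counts in the HT-29-labelled libraries, this ranking largely restates abundance in the MDA-MB-436-labelled ones.

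KLK8 was 142-fold lower (25 to 5651, adjusted p = 4.96e-07), KLK12, whose call was fixed by the filter, at least 70.95-fold lower and KLK7 at least 20.1-fold lower (adjusted p = 4.92e-07). For KLK5 the log2 difference was 0.17 (SE 0.338, adjusted p = 0.649), and the pooled reads gave a ratio of 1.18 with an interval of 0.387 to 3.61. For KLK14 it was -0.68 (SE 0.527, adjusted p = 0.252). Leaving out the 25M MDA-MB-436-labelled library, KLK14 passed (-1.46, adjusted p = 0.0147), and without the deeper one its value was 0.10 (adjusted p = 0.833). Both genes had 8.01 normalised counts or fewer in all 4 libraries.

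Very low values in a line can be set beside the most abundant keratins of MCF10A. KRT5 had 424101 and 416184 normalised counts in MCF10A, 236 and 77.2 in the HT-29-labelled libraries and 124 and 3.70 in the MDA-MB-436-labelled ones. It was higher in the 25M library of both lines, as were KRT14 and KRT81. Pooled over the HT-29-labelled libraries, KRT5 stood at 0.0286% of its MCF10A level and KLK5 at 0.291% of its own. Of the other members highest in MCF10A, KLK7 and KLK13 stood at 0%, KLK8 at 0.124% and KLK14 at 1.32%. In the MDA-MB-436-labelled libraries, KRT5 stood at 0.00749% and KLK5 at 0.344%. Whether the reads behind these keratin values have a part in the low kallikrein values was not tested.

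Along chromosome 19 the members do not sort by position. The order of the cluster is KLK1, KLK15, KLK3, KLK2, KLKP1, KLK4, KLK5, KLK6, KLK7, KLK8, KLK9, KLK10, KLK11, KLK12, KLK13 and KLK14. KLK6, higher in the MDA-MB-436-labelled libraries than in MCF10A, lies between KLK5 and KLK7, which were lower, while KLK10, KLK11 and KLK12, all higher, are neighbours. Of the 7 other genes of the cluster, 2 were tested. KLK1, the tissue kallikrein that releases kinins, had 16.9 and 15.2 normalised counts in MCF10A, 1.5 and 0 in the HT-29-labelled libraries and 103 and 107 in the MDA-MB-436-labelled ones, thus in the same order as KLK10. KLK9 had 41.2 and 46.6 in MCF10A, 0 and 0.547 in the HT-29-labelled libraries and 4.12 and 7.39 in the MDA-MB-436-labelled ones, the order of KLK8. KLK2 had no reads, and KLK3, KLK4, KLK15 and KLKP1 had at most 2 reads in a library.

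KLK1 and KLK9 were called in all 3 comparisons. KLK1 was higher in the MDA-MB-436-labelled libraries than in MCF10A (log2 fold change 2.64, adjusted p = 0.000663) and KLK9 was lower (-2.77). KLK9 passed the filter only through MCF10A, so its calls against MCF10A were fixed by it. Both were lower in the HT-29-labelled libraries than in either other line. Outside the cluster, C19orf48 on the KLK1 side had 6223 and 6100 in MCF10A, 2043 and 1940 in the HT-29-labelled libraries and 5159 and 5744 in the MDA-MB-436-labelled ones. CTU1 on the KLK14 side had 492 and 477, 168 and 132, and 552 and 602. Both were lower in the HT-29-labelled libraries than in MCF10A, by 1.63 and 1.69 on the log2 scale. Neither was called between MCF10A and the MDA-MB-436-labelled libraries. SHANK1 and SIGLEC9 were higher in the HT-29-labelled libraries than in MCF10A (3.72 and 5.40), and CLEC11A was not called. Of 6 flanking genes tested, 2 were higher and 2 lower there, against 28.4% and 18.1% of all genes. For the MDA-MB-436-labelled libraries against MCF10A, 2 were higher (CD33 and SIGLEC9) and 0 lower, against 25.6% and 23.7%. SIGLEC9 had 1 read in each of these libraries and 0 in MCF10A, so its value is at the limit of detection. That count of 2 fell to 1 with edgeR, DESeq2 and limma-voom and to 0 against a null fold of 2. SHANK1 and SIGLEC9 passed the filter only through the HT-29-labelled libraries and CD33 only through the MDA-MB-436-labelled ones.

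**Figure D4:**
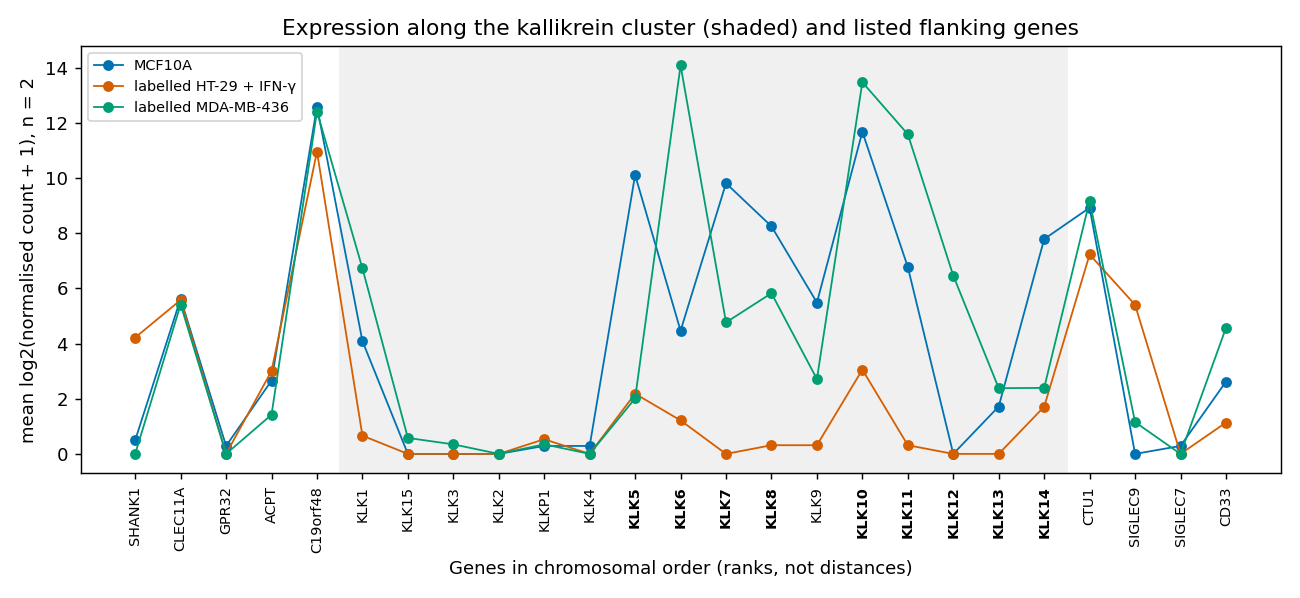
Mean log2(normalised count + 1) of 2 libraries per line for the kallikrein cluster (shaded) and listed flanking genes, in chromosomal order; positions are ranks, not distances, and members are in bold. The lines of MCF10A and the MDA-MB-436-labelled libraries cross repeatedly between KLK5 and KLK14, while the HT-29-labelled libraries are lowest over most of the cluster and C19orf48 and CTU1 are expressed in all 3 lines.

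Genes whose levels were most like a member were sought over the 6 libraries, which hold only 3 lines. The measure was the root mean square difference of log2(normalised count + 1). The gene nearest to KLK11 was TMEM30B, at 0.06, with means of 104 in MCF10A, 0.274 in the HT-29-labelled libraries and 3026 in the MDA-MB-436-labelled ones. KLK10 was nearest to CDH1, the epithelial cadherin, at 0.81, followed by the tight junction gene CLDN7 at 0.96 and the epithelial splicing regulator ESRP1 at 0.97. KLK6 was nearest to the simple epithelial keratin KRT19, at 1.02, then GPX2 at 1.09 and AGR2 at 1.16. KLK5 was nearest to VSNL1, at 0.72, and KLK14 to SERPINB3, at 0.64. The 3 nearest genes to KLK7 were KRT83, TNNI2 and KRT13, the last at 1.04, and KLK8 was nearest to LOC100130899 at 0.48.

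The inhibitors of kallikreins did not move as a block. Between the MDA-MB-436-labelled libraries and MCF10A, 5 of 9 tested inhibitors were higher (SPINK1, SERPINA1, SERPINA3, SERPINA5 and SERPINF2) and 4 were lower (SPINK5, SPINK6, SLPI and PI3), with a median log2 fold change of 1.76, where 25.6% of all genes tested were higher and 23.7% lower. SPINK6 passed the filter only through MCF10A and SERPINA5 only through the MDA-MB-436-labelled libraries. The call of SPINK6 was thus fixed by the filter, as was the direction of SERPINA5. SPINK6, a kallikrein inhibitor of skin, had 489 and 528 normalised counts in MCF10A, 1.5 and 0.547 in the HT-29-labelled libraries and 0 in both MDA-MB-436-labelled ones. SPINK5 had 139 and 137, 27 and 23, and 10.3 and 16, with the lines in the same order here and below, so that SPINK5 and SPINK6 were highest in MCF10A, as were KLK5, KLK7 and KLK14. SPINK1, a trypsin inhibitor, had 0 and 0.491, 119 and 112, and 2287 and 2336. SLPI, a secreted inhibitor of leukocyte proteases, was 35.8-fold lower in the MDA-MB-436-labelled libraries than in MCF10A, and PI3, which encodes elafin, 47.6-fold lower. Between the HT-29-labelled libraries and MCF10A, 2 of the 9 were higher and 6 lower (median -1.67), against 28.4% and 18.1% of all genes. The call of SPINK6, among the 6, was again fixed by the filter.

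Between the HT-29-labelled libraries and the MDA-MB-436-labelled ones, 2 inhibitors were higher and 4 lower (median -0.7), against 29.9% and 23.5% of all genes. The direction of SERPINA5, among the 4, was fixed by the filter. The count of 2 went to 1 or 4 under 9 alternatives. SLPI was just past the fold threshold, with 1127 and 1014 normalised counts against 537 and 528. It was not called with TMM scaling (0.97), edgeR (0.96), DESeq2 (0.99) or limma-voom (0.95). Its log2 fold change was 0.93 without the 25M library labelled HT-29 and 0.99 without the deeper one labelled MDA-MB-436. SPINK5 and SPINK6, not called in the main fit, passed with library size scaling (1.21 and 1.08). The log2 fold change of SPINK5 was 1.01 without the deeper library labelled HT-29 and 1.20 without the deeper one labelled MDA-MB-436. SPINK6 had 1 read in each HT-29-labelled library and 0 in the MDA-MB-436-labelled ones, so its values are at the limit of detection.

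Proteases that can activate kallikreins or one another, taken with their own inhibitors, were 6 higher and 1 lower of 9 tested between the MDA-MB-436-labelled libraries and MCF10A (median log2 fold change 3.05), against 25.6% and 23.7% of all genes. HPN and MEP1B, both among those higher, passed the filter only through the MDA-MB-436-labelled libraries, so their calls here were fixed by it. TMPRSS2, a transmembrane protease of gut and prostate epithelium, had 1.87 and 0.982 normalised counts in MCF10A, 10.5 and 10.9 in the HT-29-labelled libraries and 910 and 985 in the MDA-MB-436-labelled ones. TMPRSS4 had 13.1 and 19.1, 1.5 and 0.547, and 2561 and 2796. PLAU, the urokinase gene, went the other way, with 886 and 840, 7145 and 6948, and 26.8 and 25.9, and was the 1 gene of the list lower in the MDA-MB-436-labelled libraries than in MCF10A. ST14, which encodes matriptase, had 7925 and 8049 in MCF10A and 14474 and 15486 in the MDA-MB-436-labelled libraries, below the fold threshold (log2 fold change 0.91), and 3 and 2.19 in the HT-29-labelled ones.

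In the HT-29-labelled libraries, 3 genes of this list were higher and 5 lower than in MCF10A (median -3.1), against 28.4% and 18.1% of all genes. Against the MDA-MB-436-labelled ones, 1 was higher and 8 lower (median -8.05), against 29.9% and 23.5%. HPN and MEP1B are among the 8, and both passed the filter only through the MDA-MB-436-labelled libraries. ST14 was 3335-fold lower than in MCF10A (1532 to 9090), and PRSS8, which encodes prostasin, 362-fold lower (166 to 988). SPINT1, an inhibitor of matriptase, had 3108 and 3137 in MCF10A, 52.5 and 38.3 in the HT-29-labelled libraries and 11905 and 12492 in the MDA-MB-436-labelled ones. ST14, PRSS8 and SPINT1 shared with KLK10 the order of the 3 lines.

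**Figure D5:**
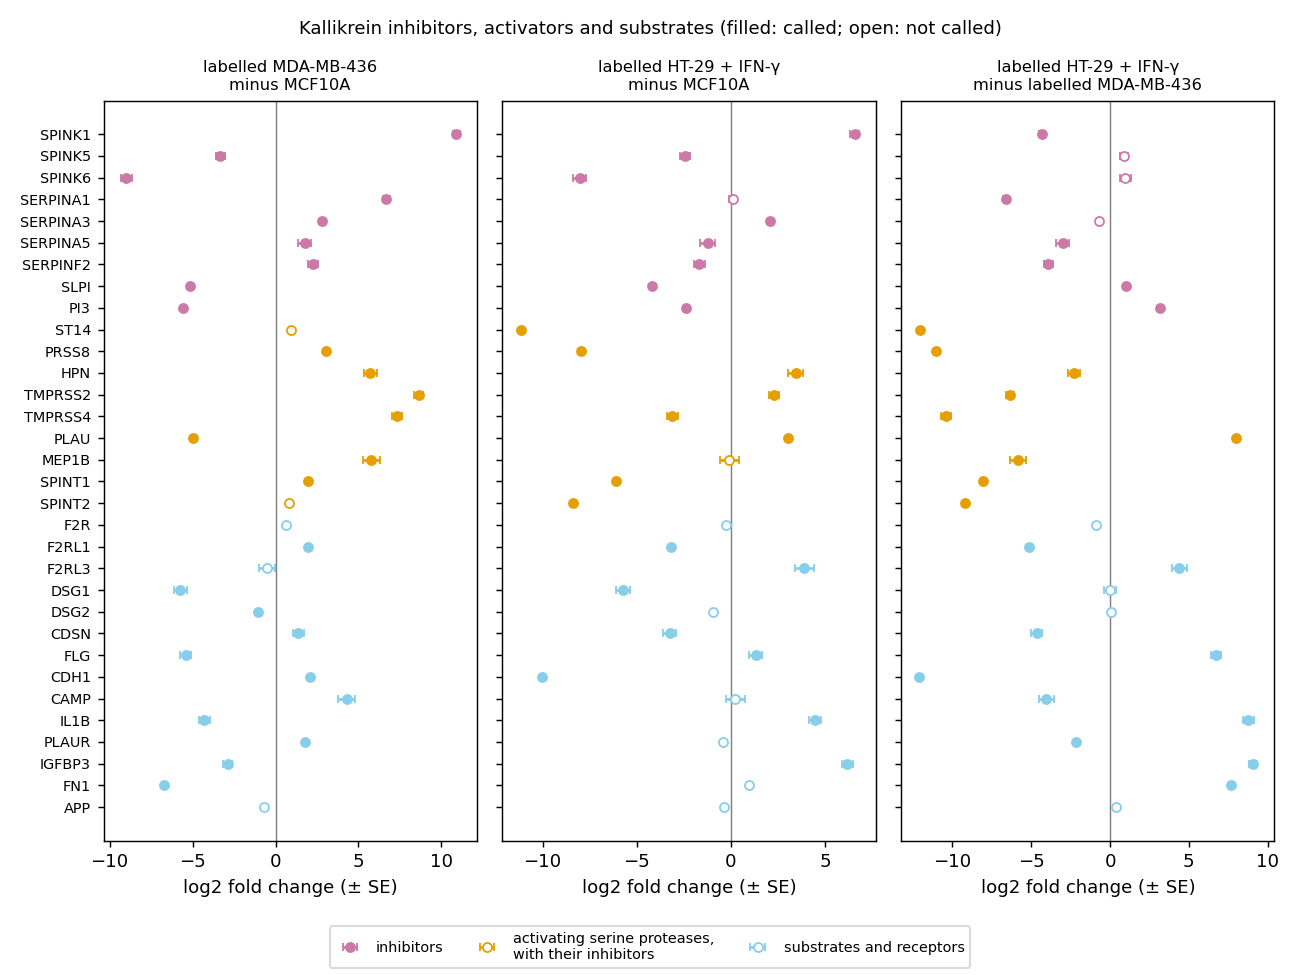
limma log2 fold changes with bars of 1 SE for tested kallikrein inhibitors, activating proteases with their inhibitors, and 14 of the 15 substrates or receptors, in the 3 comparisons; filled points passed the call rule. SPINK5, SPINK6, SLPI and PI3 lie below 0 in both comparisons with MCF10A, and ST14, PRSS8 and SPINT1 lie far below 0 in the HT-29-labelled libraries.

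Of 15 tested substrates and receptors, 5 were higher and 7 lower in the MDA-MB-436-labelled libraries than in MCF10A (median log2 fold change -0.713), against 25.6% and 23.7% of all genes. F2RL1, which encodes the protease-activated receptor PAR2 that KLK5, KLK6 and KLK14 can cut, had 1977 and 1964 normalised counts in MCF10A, 219 and 207 in the HT-29-labelled libraries and 7671 and 7406 in the MDA-MB-436-labelled ones. It was 3.8-fold higher in the last than in MCF10A (3.68 to 3.92). CDH1, the gene of E-cadherin, followed the same order, with 5307 and 5324, 4.5 and 3.83, and 22793 and 22477.

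DSG1, the desmosomal cadherin of the upper epidermis that skin kallikreins cut, was detected in MCF10A at 59.9 and 45.2 normalised counts and in none of the other 4 libraries. CDSN, which encodes their substrate corneodesmosin, had 54.3 and 56 in MCF10A, 3 and 7.66 in the HT-29-labelled libraries and 140 and 152 in the MDA-MB-436-labelled ones. Its log2 fold change in the last was 1.39 (adjusted p = 0.00686), and without the 25M MCF10A library it was 1.36 and no longer passed (adjusted p = 0.0511). In the HT-29-labelled libraries, 4 of the 15 were higher and 5 lower than in MCF10A (median -0.348), a share of higher genes close to the 28.4% of all genes (18.1% were lower). Against the MDA-MB-436-labelled ones 6 were higher and 5 lower (median 0.09), where 29.9% and 23.5% of all genes were. IGFBP3, a secreted binding protein of insulin-like growth factors, had the largest log2 fold changes among those higher, with 26.2 and 28.5 in MCF10A, 2057 and 2077 in the HT-29-labelled libraries and 4.12 and 1.85 in the MDA-MB-436-labelled ones.

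Of 10 tested transcription factors of epithelial or hormone-regulated programmes, 5 were higher and 4 lower in the MDA-MB-436-labelled libraries than in MCF10A (median log2 fold change 2.06), against 25.6% and 23.7% of all genes. GRHL2, a grainyhead factor of epithelia, had 0 and 0.491 normalised counts in MCF10A, 1.5 and 0.547 in the HT-29-labelled libraries and 3693 and 3779 in the MDA-MB-436-labelled ones. OVOL1 had 33.7 and 21.1, 3 and 0, and 1758 and 1872, in the order of KLK6 and KLK11. EHF, an epithelial ETS factor, had 1341 and 1277, 108 and 101, and 16047 and 15652, in the order of KLK10. ELF3 and KLF4 did not share that order, since both were also higher in the HT-29-labelled libraries than in MCF10A. ELF3 had 489 and 481, 2151 and 2142, and 27891 and 28908, and KLF4 had 440 and 459, 3719 and 3740, and 12253 and 12210. TP63, the basal epithelial factor, was highest in MCF10A at 2835 and 2981, with 24 and 17.5 in the HT-29-labelled libraries and 4.12 and 3.70 in the MDA-MB-436-labelled ones. NR3C1, the glucocorticoid receptor, had 4219 and 4231 in MCF10A, the line given hydrocortisone, 5006 and 5178 in the HT-29-labelled libraries and 0 and 2.46 in the MDA-MB-436-labelled ones. The libraries labelled HT-29 had 3 of the 10 factors higher and 5 lower than MCF10A (median -1.13), where 28.4% and 18.1% of all genes were, so the share higher was near that of all genes. They had 3 higher and 6 lower than the MDA-MB-436-labelled ones (median -2.33), where 29.9% and 23.5% of all genes were.

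Values within a read depth, 1 library against 1, kept the direction of all called member differences. For KLK6 they gave log2 differences of 10.08 in the 25M libraries and 9.16 in the deeper ones between the MDA-MB-436-labelled libraries and MCF10A. KLK5 gave -8.51 and -7.69 and KLK14 -6.25 and -4.53 in the same comparison. For the uncalled difference of KLK5 between the HT-29-labelled and MDA-MB-436-labelled libraries, the values were 0.85 and -0.51, on opposite sides of 0.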

How the data were processed

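Paired 50-base reads of total RNA were analysed in 6 libraries, 2 per line, grouped by the cell line labels. The labels of the deeper MCF10A library disagree (100M in its title, 50 in its sample type). The submitters' processing notes name FastQC, STAR 2.2.0, HTSeq and hg19. Annotation and strandedness: not given in the sources used here. Normalised counts, as deposited, are a signal that the authors scaled with 1 factor per library: 100% of values were whole multiples of 1 step (tolerance 0.001), so whole reads were recovered. The deposited RPKM values were above 0 where normalised counts were not, or the reverse, in 1598 rows; in the 9 member rows both columns kept 1 ratio in all libraries with reads (2 to 6 a member), and RPKM was used only between members. Of 23368 rows, 28 with date-like symbols were left out, among them the 4 rows with a repeated name.

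Differences were tested with limma 3.58.1 (R 4.3.3; trended, robust) on log2(normalised count + 1), in 1 fit of 6 libraries with 3 residual degrees of freedom, for 15638 genes with at least 10 normalised counts in 2 libraries. This scale understates changes of low genes. P-values were Benjamini-Hochberg adjusted over all genes. Nothing in the labels says that the libraries of a line are separate cultures, and the spread that p-values measure is that between these libraries, which may be technical. The median chi-square between paired libraries was 0.546 (MCF10A), 0.709 (HT-29-labelled) and 0.672 (MDA-MB-436-labelled), where sampling gives 0.455. Stated folds divide pooled reads, with exact 95% intervals, with a floor of 3 reads over a line. edgeR 4.0.16, DESeq2 1.42.0 and limma-voom on recovered reads, other scalings, filters and pseudocounts, thinning, a depth term and leaving out libraries were alternatives. The fit was tested on simulated data. Members and lists were chosen with earlier results of these data known. List genes were named by size of change, and some by role after their values were seen. One gene of the substrate list is counted but not reported here by name. Promoters are RefSeq sequences of GRCh38.p14, and gene order is RefSeq's; gene coordinates were not taken from it.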

Additional observations from a re-analysis of the deposited data

How the results depend on the processing

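Counts of called members stayed within 1.5 times the main count in all 3 comparisons under the alternatives run, and no called member changed direction. The reversals were among uncalled differences. KLK5 between the HT-29-labelled and MDA-MB-436-labelled libraries was -0.26 with edgeR, -0.23 with DESeq2 and -0.19 with limma-voom, and ran from -0.23 to 0.57 in fits that left out 1 library. KLK14 ran from -1.46 to 0.10 in such fits, the highest with the deeper MDA-MB-436-labelled library left out. Between the HT-29-labelled libraries and MCF10A, SERPINA1 was -0.03 with TMM scaling, -0.00 with the MCF10A libraries summed, -0.29 after thinning, and -0.22 to 0.41 with 1 library left out. GRHL2 was -0.80 after thinning. The cause was not tested. Counts over the gene lists that moved by over 1.5 times were those of inhibitors, flanking genes and other kallikreins, partly because fewer genes passed a filter of 100 normalised counts. KLK12 was not tested with that filter. Library size scaling moved the median log2 fold change of all genes in both comparisons of the HT-29-labelled libraries. It went from 0.131 to 0.435 against MCF10A and from 0.093 to 0.415 against the MDA-MB-436-labelled ones. In the first of these, the split of higher against lower calls moved from 4442 and 2823 to 5376 and 1994, and in the second from 4675 and 3675 to 5617 and 2822. On the recovered reads, edgeR called 3904 genes higher and 3868 lower for the MDA-MB-436-labelled libraries against MCF10A. For the HT-29-labelled ones it called 4267 higher and 3098 lower against MCF10A, and 4624 and 3781 against the MDA-MB-436-labelled ones. Depth limits KLK5, KLK13 and KLK14 outside MCF10A, where 1 read is worth 0.547 to 2.06 normalised counts. The lines share no replicate number in the labels but do share the read depth label. With that label as a block, 4 members were called higher and 4 lower for the MDA-MB-436-labelled libraries against MCF10A, as without the block. For the HT-29-labelled ones, 7 were lower than in MCF10A and 6 lower than in the MDA-MB-436-labelled ones, also as without it.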
